A study of Homo sapiens with 12 samples.

Results

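The 10 genes described here are the FOS and JUN genes that encode the subunits of the transcription factor AP-1, together with 3 other immediate early genes. They were picked by symbol, by a rule that holds no measured value but was set with earlier results of these data known, and are FOS, FOSB, FOSL1, FOSL2, JUN, JUNB, JUND, EGR1, IER2 and IER3. All 10 were found among the 20531 genes quantified by RNAseq in SKBR-3, an established breast carcinoma line with HER2 amplification and no estrogen receptor, grown in RPMI with 10% FBS. Cells were transfected with pooled siRNA, either against FOXA1 or non-targeting (NT), before 24 h of 300 nM lapatinib, an inhibitor of the HER2 and EGFR kinases, or of DMSO. The labels give 48 h of siRNA before the drug, whereas the methods give 24 h. The 4 groups are written NT/DMSO, NT/lapatinib, FOXA1/DMSO and FOXA1/lapatinib, with the siRNA first, and each held 3 replicates. The study asked whether the response to HER2 inhibition requires FOXA1, a pioneer transcription factor of luminal cells. Because 1 cell line and 1 siRNA pool per target were used, effects of the line or of the pool cannot be told apart from those of FOXA1 itself. No source used here says whether replicates were separate cultures, so p-values measure only the spread between these samples.

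AP-1 is a dimer of basic leucine zipper proteins. A JUN protein binds another JUN protein or a FOS protein, and the pair binds DNA at the AP-1 site or the closely related cyclic AMP response element. JUN, JUNB and JUND are the JUN subunits, and FOS, FOSB, FOSL1 (FRA-1) and FOSL2 (FRA-2) are the FOS subunits, of which FOSL1 and FOSL2 lack the strong activation domain of FOS. Immediate early genes are transcribed within minutes of growth factor signaling, without new protein synthesis, through ERK, ELK factors and serum response factor (SRF). EGR1 is a zinc finger transcription factor of this class, IER2 a nuclear protein, and IER3 a small protein linked to survival and to ERK and NF-kB signaling. HER2 drives this pathway in HER2-amplified breast cancer cells.

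The genes lie on 7 chromosomes. GENCODE v44 on GRCh38 places FOS at chr14:75278826-75282230 (+), FOSB at chr19:45467995-45475179 (+), FOSL1 at chr11:65892049-65900573 (-) and FOSL2 at chr2:28392448-28417317 (+), each with 4 exons in its canonical transcript. JUN at chr1:58776845-58784048 (-), JUNB at chr19:12791486-12793315 (+) and JUND at chr19:18279694-18281622 (-) have 1 exon each. EGR1 at chr5:138465479-138469303 (+), IER2 at chr19:13150411-13154911 (+) and IER3 at chr6:30743199-30744548 (-) have 2 exons each. FOSB overlaps ERCC1 and JUNB overlaps HOOK2 on the opposite strand, and antisense RNAs overlap FOSL2, IER2 and IER3. The sources used here do not say if strand was used in counting, so reads of these 5 genes cannot be told apart from those of their overlapping partners.

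RefSeq promoters on GRCh38.p14 were matched for 8 of the 10 members, all except FOSL1 and IER3. The bases from 210 to 11 before the transcription start are printed 5′ to 3′ for 5 genes, since EGR1 was the zinc finger gene that both treatments moved, FOS is the classical immediate early gene, and JUN, JUNB and JUND went separate ways. Capitals mark every match to CArG boxes (the SRF site), the cyclic AMP response element TGACGTCA, the shorter TGACGT that lies within it, the JUN promoter type of AP-1 site TGACATCA, the general AP-1 site TGANTCA and the forkhead motif GTAAACA, on either strand. The windows are EGR1 at chr5:138465269-138465468 (+), FOS at chr14:75278618-75278817 (+), JUN at chr1:58784058-58784257 (-), JUNB at chr19:12791276-12791475 (+) and JUND at chr19:18281633-18281832 (-).
EGR1: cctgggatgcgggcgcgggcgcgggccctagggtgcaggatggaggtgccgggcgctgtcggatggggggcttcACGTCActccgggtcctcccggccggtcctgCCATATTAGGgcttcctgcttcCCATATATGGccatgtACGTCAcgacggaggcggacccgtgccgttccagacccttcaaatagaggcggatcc
FOS: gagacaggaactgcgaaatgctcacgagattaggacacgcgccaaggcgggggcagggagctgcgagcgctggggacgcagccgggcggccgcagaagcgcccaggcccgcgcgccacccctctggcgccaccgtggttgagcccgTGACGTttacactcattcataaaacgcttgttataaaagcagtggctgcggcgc
JUN: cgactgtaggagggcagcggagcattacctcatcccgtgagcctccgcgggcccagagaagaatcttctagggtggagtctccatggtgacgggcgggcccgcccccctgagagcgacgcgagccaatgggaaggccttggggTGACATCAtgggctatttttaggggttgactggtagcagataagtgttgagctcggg
JUNB: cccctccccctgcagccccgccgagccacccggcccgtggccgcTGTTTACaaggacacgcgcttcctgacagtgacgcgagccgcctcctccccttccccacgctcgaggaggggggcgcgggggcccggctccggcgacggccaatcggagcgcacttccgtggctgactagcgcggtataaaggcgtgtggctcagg
JUND: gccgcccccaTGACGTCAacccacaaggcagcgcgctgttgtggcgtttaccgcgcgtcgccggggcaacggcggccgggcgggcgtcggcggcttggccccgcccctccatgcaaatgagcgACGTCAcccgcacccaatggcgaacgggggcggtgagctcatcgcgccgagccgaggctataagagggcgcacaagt
The EGR1 window held 2 CArG boxes and 2 matches to TGACGT, and no other matched member had a CArG box within the 250 bases searched. Sites farther upstream, in FOS or any other member, were not searched for, so this does not show that those genes lack a CArG box. JUND held TGACGTCA and a further TGACGT, JUN held TGACATCA, and FOS, FOSB and FOSL2 held a TGACGT between 66 and 55 bases before the start. JUNB held 1 match to GTAAACA, on the reverse strand, and IER2 held none of these motifs. Among 35116 RefSeq promoters of the same length, 1.16% held a CArG box, 1.65% TGACGTCA, 2.37% TGACATCA, 7.1% TGACGT, 6.57% TGANTCA and 2.98% GTAAACA. A match describes the letters only.

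Estimated counts summed to between 25749578 and 32271850 per library (median 30542430). The siRNA target FOXA1 had normalized counts between 8308 and 13177 with NT siRNA and between 1160 and 2384 with FOXA1 siRNA, so every library matched the siRNA in its label. Lapatinib raised FOXA1 itself (log2 fold change 0.60 ± 0.05, SE, with NT siRNA and 0.54 ± 0.15 with FOXA1 siRNA). Of 7 markers listed for the line, 6 (ERBB2, GRB7, KRT8, KRT18, KRT19 and EPCAM) had at least 176 TPM in every library. CDH1 had at most 0.25 TPM, and the receptors ESR1 and PGR had at most 0.98 and 0.01. Of 5 markers of leukocytes, fibroblasts and endothelium, 4 had at most 0.37 TPM, while COL1A1 had 2.74 to 5.58 TPM and mean levels of 5.2 in NT/DMSO, 3.21 in NT/lapatinib, 4.57 in FOXA1/DMSO and 3.55 in FOXA1/lapatinib. The part of such cells in the results below was not tested.

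Lapatinib raised some members and lowered others. With NT siRNA, FOSL2, JUND, JUNB and FOSB rose while FOSL1 and EGR1 fell. With FOXA1 siRNA, FOSL2, JUND and JUN rose while FOSL1, EGR1 and IER3 fell. FOSL1 was the only AP-1 subunit among those that fell, and it could enter these comparisons only as a gene higher in DMSO. FOXA1 siRNA alone raised EGR1, IER3, FOS, JUNB, FOSL2 and IER2 by between 1.3-fold and 1.74-fold and lowered JUND.

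In counts, 4 of the 10 members rose and 2 fell with lapatinib under NT siRNA by edgeR's quasi-likelihood test at a Benjamini-Hochberg adjusted p under 0.05, where 30.5% and 29.2% of all 13713 genes tested rose and fell. Under FOXA1 siRNA, 3 members rose and 3 fell, against 29.0% and 29.1% of 13745 genes. For FOXA1 against NT siRNA in DMSO, 6 members rose and 1 fell, against 21.9% and 21.3% of 13694 genes. In lapatinib, 9 members could be tested, and 3 rose and 1 fell, against 22.7% and 22.2% of 13727 genes. FOSL1 reached 10 counts only in the DMSO libraries, so it could enter the drug comparisons only as a gene that was higher there, and without it 1 of 9 members fell under NT siRNA and 2 of 9 under FOXA1 siRNA. With the replicate number as a block, 7 of 9 members rose in the last comparison and 1 fell, but the block also raised the shares of all genes there, to 30.6% and 31.1%. The shares of all genes that rose and fell with the block were 34.5% and 32.8% for lapatinib with NT siRNA, 34.5% and 34.1% with FOXA1 siRNA, and 30.3% and 30.2% for FOXA1 siRNA in DMSO. The median log2 fold change of the members was 0.01 and 0.12 for lapatinib with NT and with FOXA1 siRNA, where the medians of all genes were 0.03 and 0.01. It was 0.48 for FOXA1 siRNA in DMSO and 0.34 in lapatinib, where both medians of all genes were -0.01. The 4 comparisons share groups in pairs and are not independent of each other. In bulk RNA, fewer expressing cells and less RNA per cell cannot be told apart.

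Changes of at least 1 on the log2 scale were fewer. FOSL2 and JUND rose and FOSL1 and EGR1 fell by at least 1 on the log2 scale with lapatinib under NT siRNA, 2 in each direction, as did 6.64% and 7.13% of all genes. Under FOXA1 siRNA this held for FOSL2 upward and FOSL1 downward, against 4.93% and 5.12% of all genes. JUND lay at the edge of this size, with 0.99 by DESeq2 and 0.90 to 1.10 when 1 library was left out. Leaving out 1 library also gave -1.45 to -0.93 for EGR1 under NT siRNA and 0.96 to 1.05 for FOSL2 under FOXA1 siRNA. FOXA1 siRNA changed 0 members by this much, against 4.06% and 2.77% of all genes upward and downward in DMSO and 4.51% and 3.90% in lapatinib. The libraries of the groups compared did not overlap for 6 members with lapatinib under NT siRNA and for 7 under FOXA1 siRNA, against 66.3% and 65.3% of all genes. For FOXA1 siRNA they did not overlap for 8 members in DMSO and 4 of 9 in lapatinib, against 53.7% and 55.5% of all genes. Both kinds of count for lapatinib against DMSO include FOSL1, which could enter those comparisons only as a gene higher in DMSO.

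**Figure D1:**
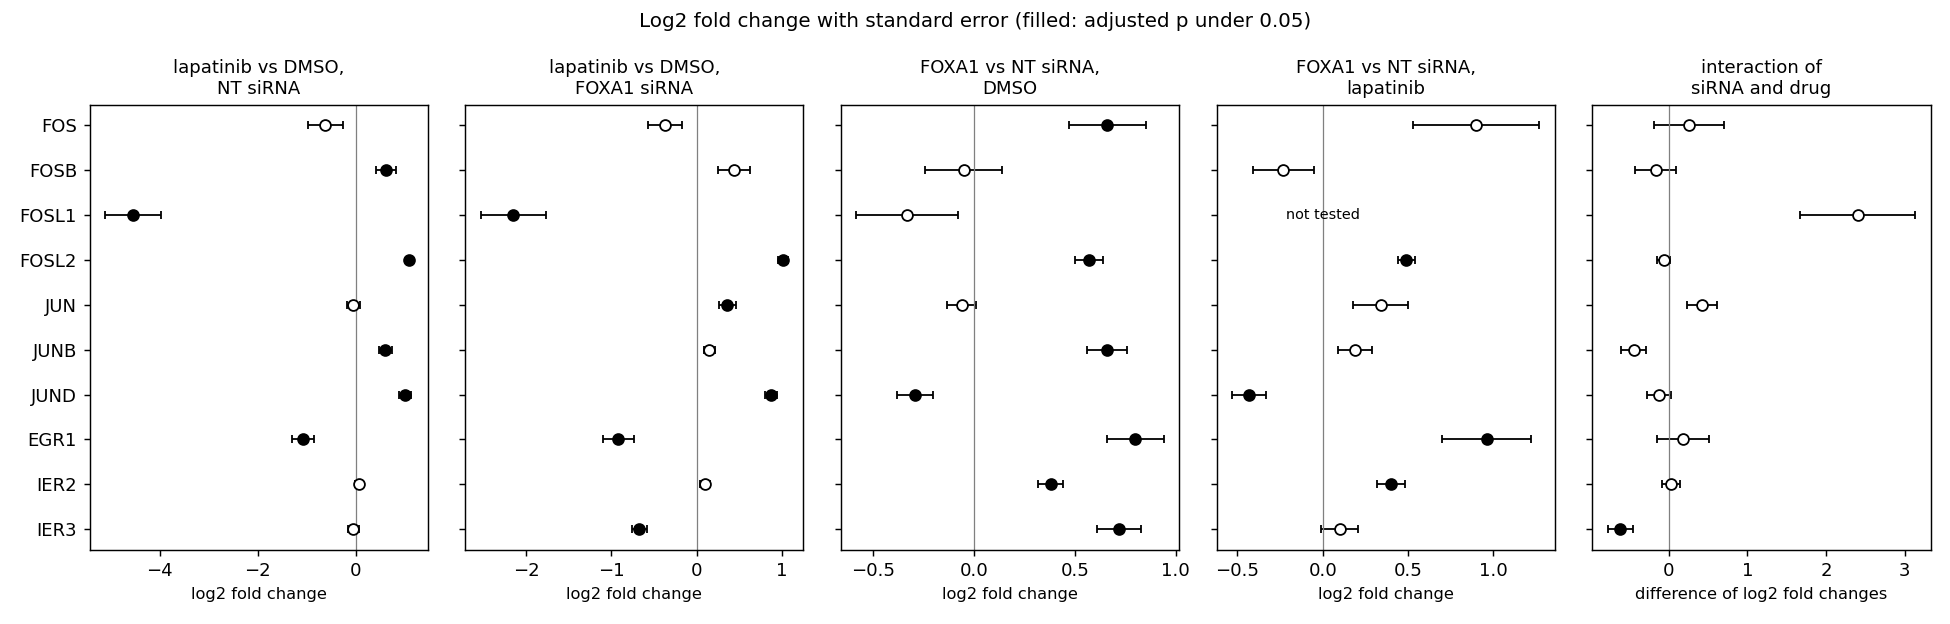
Log2 fold change (x axis, with standard error) of the 10 members in the 4 comparisons and in the interaction, with filled points for an adjusted p under 0.05. FOSL1 lies farthest to the left with lapatinib (-4.54 and -2.15), FOSL2 and JUND lie to the right by 0.87 to 1.09, and EGR1 lies to the left with lapatinib and to the right with FOXA1 siRNA.

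FOSL2 rose with lapatinib under both siRNAs and with FOXA1 siRNA with and without the drug. Its normalized counts were 1299, 1308 and 1187 in NT/DMSO and 2643, 2765 and 2524 in NT/lapatinib. They were 1949, 1902 and 1726 in FOXA1/DMSO and 3730, 3849 and 3616 in FOXA1/lapatinib. No group overlapped another, and the order NT/DMSO, FOXA1/DMSO, NT/lapatinib, FOXA1/lapatinib held for every library. Lapatinib raised FOSL2 2.12-fold with NT siRNA (log2 fold change 1.09 ± 0.06, adjusted p = 6.05e-06) and 2.02-fold with FOXA1 siRNA (1.01 ± 0.06, adjusted p = 5.44e-06). FOXA1 siRNA raised it 1.48-fold in DMSO (0.57 ± 0.07, adjusted p = 0.000432) and 1.4-fold in lapatinib (0.49 ± 0.05, adjusted p = 0.000172). The drug effects with the 2 siRNAs differed by -0.06 ± 0.08 on the log2 scale (adjusted p = 0.759 for the interaction).

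FOSL1, the other FOS subunit without the strong activation domain, went the opposite way and nearly disappeared. It had 19, 22 and 19 counts in NT/DMSO and 1, 0 and 1 in NT/lapatinib. With FOXA1 siRNA it had 17, 17 and 14 counts in DMSO and 4, 4 and 2 in lapatinib. All 6 DMSO libraries lay above all 6 lapatinib libraries, at few counts per library. From the summed counts, scaled by library size, FOSL1 was 27.6-fold lower with lapatinib under NT siRNA (exact 95% interval 7.32 to 233) and 4.58-fold lower under FOXA1 siRNA (2.29 to 10.2), and these intervals cover counting error only. edgeR's test called both decreases (adjusted p = 0.000203 and 0.00144), with fitted log2 fold changes of -4.54 ± 0.57 and -2.15 ± 0.38 that depend on the prior count. FOSL1 passed the filter through the DMSO libraries alone, so it could enter these 2 tests only as a gene higher there. FOXA1 siRNA in DMSO gave a ratio of 0.785 (0.525 to 1.17, adjusted p = 0.325). In lapatinib the gene was under 10 counts in every library and was not tested, and the summed counts of 2 and 10 gave a ratio of 4.73 (1.01 to 44.4). The interaction was 2.40 ± 0.73 with an adjusted p = 0.0882 (0.0535 with the replicate block).

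FOS itself was low and varied between replicates. The normalized counts were 62.06, 86.27 and 55.6 in NT/DMSO, 24.97, 69.58 and 34.88 in NT/lapatinib, 99.92, 109.8 and 110.4 in FOXA1/DMSO, and 58.9, 104.8 and 81.88 in FOXA1/lapatinib. Replicate 2 was the highest library of both lapatinib groups, and each lapatinib group overlapped its DMSO group. In DMSO, all 3 FOXA1 siRNA libraries lay above all 3 NT libraries. FOXA1 siRNA raised FOS 1.58-fold in DMSO (0.66 ± 0.19, adjusted p = 0.0239). This call was lost without NT/DMSO replicate 1 (adjusted p = 0.0838) or 3 (0.0809), without FOXA1/DMSO replicate 2 (0.0573) or 3 (0.0732), and with all 12 samples in one model (0.0971). The log2 fold change with lapatinib was -0.62 ± 0.36 with NT siRNA (adjusted p = 0.171), and the block gave -0.67 (0.0308). Without NT/lapatinib replicate 2 it was -1.15 (adjusted p = 0.0114). With FOXA1 siRNA it was -0.37 ± 0.20 (adjusted p = 0.151), or -0.58 (0.0295) without FOXA1/lapatinib replicate 2. In lapatinib, FOXA1 siRNA gave 0.90 ± 0.37 (adjusted p = 0.078), which became 0.94 (0.00099) with the block and 1.43 (0.00671) without NT/lapatinib replicate 2.

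FOSB, a FOS subunit with a full activation domain, was also low. Its normalized counts were 55.17, 48.59 and 45.06 in NT/DMSO and 65.39, 89.46 and 68.74 in NT/lapatinib. FOXA1/DMSO gave 56.96, 41.87 and 43.78, and FOXA1/lapatinib gave 58.9, 72.08 and 60.39. The lapatinib libraries lay above the DMSO libraries of the same siRNA. FOSB rose 1.53-fold with NT siRNA (0.61 ± 0.20, adjusted p = 0.0254), but DESeq2 gave an adjusted p of 0.0626. The edgeR call was lost without NT/DMSO replicate 2 (adjusted p = 0.0573) or 3 (0.0982) or NT/lapatinib replicate 2 (0.0799). With FOXA1 siRNA the difference was 0.44 ± 0.19 (adjusted p = 0.0779), and 0.58 (0.0453) without FOXA1/DMSO replicate 1. FOXA1 siRNA gave -0.05 ± 0.19 in DMSO (adjusted p = 0.857) and -0.23 ± 0.18 in lapatinib (adjusted p = 0.332).

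**Figure D2:**
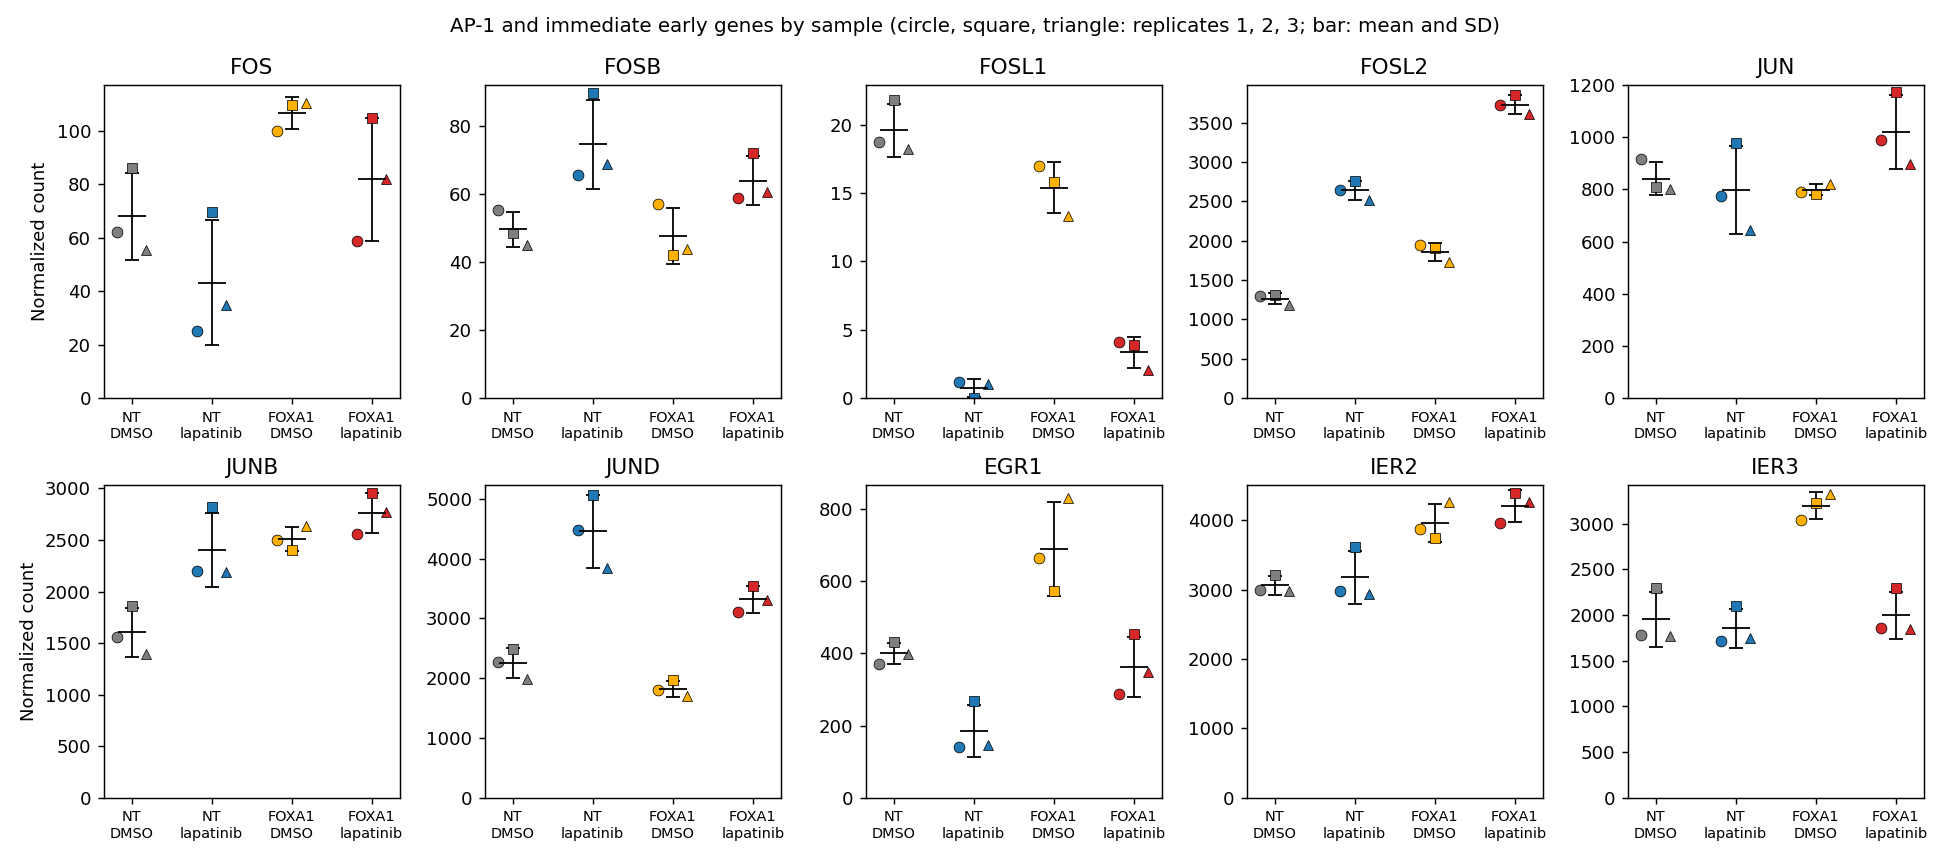
Normalized counts (y axis, from 0 in each panel) of each member in the 12 libraries, with circle, square and triangle for replicates 1, 2 and 3 and a bar for the mean and SD of each group. FOSL2 and JUND stand higher in both lapatinib groups, FOSL1 falls to at most 4.133, and IER3 stands higher in FOXA1/DMSO (3039 to 3323) than in any other group.

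JUND, often the JUN subunit of resting cells, rose with lapatinib under both siRNAs and was the one member lowered by FOXA1 siRNA. The normalized counts were 2273, 2497 and 1993 in NT/DMSO and 4480, 5058 and 3836 in NT/lapatinib. They were 1810, 1968 and 1698 in FOXA1/DMSO and 3107, 3545 and 3303 in FOXA1/lapatinib. None of the groups overlapped, and FOXA1/lapatinib lay between NT/DMSO and NT/lapatinib. Lapatinib raised JUND 2.01-fold with NT siRNA (1.0 ± 0.12, adjusted p = 0.000127) and 1.83-fold with FOXA1 siRNA (0.87 ± 0.07, adjusted p = 2.5e-05). FOXA1 siRNA lowered it to 74.1% of the NT level in lapatinib (-0.43 ± 0.10, adjusted p = 0.00776) and to 81.7% in DMSO (-0.29 ± 0.09, adjusted p = 0.0371). The call in DMSO was lost without NT/DMSO replicate 1 (adjusted p = 0.092) or 2 (0.0712) or FOXA1/DMSO replicate 1 (0.0972) or 3 (0.126). The interaction was -0.12 ± 0.15 (adjusted p = 0.708).

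JUNB, a JUN subunit that can oppose JUN at many promoters, rose with either treatment alone. Normalized counts were 1562, 1859 and 1393 in NT/DMSO, 2197, 2816 and 2189 in NT/lapatinib, 2495, 2406 and 2633 in FOXA1/DMSO, and 2562, 2951 and 2773 in FOXA1/lapatinib. All 3 other groups lay above NT/DMSO, and they overlapped one another. Lapatinib raised JUNB 1.52-fold with NT siRNA (0.60 ± 0.13, adjusted p = 0.00425), and FOXA1 siRNA raised it 1.58-fold in DMSO (0.66 ± 0.10, adjusted p = 0.00158). With FOXA1 siRNA the drug gave 0.15 ± 0.06 (adjusted p = 0.0808), which passed with the block (0.15, 0.0334) and without FOXA1/lapatinib replicate 1 (0.21, 0.0269). In lapatinib the siRNA gave 0.19 ± 0.10 (adjusted p = 0.155), which passed with the block (0.20, 0.00367) and without NT/lapatinib replicate 2 (0.32, 0.00607). The interaction was -0.44 ± 0.16 (adjusted p = 0.117), and it passed with the block (-0.45, 0.0184) and without NT/DMSO replicate 2 (-0.56, 0.0314).

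JUN, the strongest activator of the JUN subunits, was called in 1 comparison. Its normalized counts were 916.1, 807.2 and 800.5 in NT/DMSO, 775.2, 978.1 and 642.3 in NT/lapatinib, 791.4, 782.5 and 821.4 in FOXA1/DMSO, and 987.8, 1173 and 897.7 in FOXA1/lapatinib. The lapatinib libraries lay above the DMSO libraries under FOXA1 siRNA, whereas under NT siRNA they spanned the DMSO range. JUN rose 1.28-fold with lapatinib under FOXA1 siRNA (0.36 ± 0.10, adjusted p = 0.0119). Under NT siRNA the difference was -0.05 ± 0.14 (adjusted p = 0.763). The test of the difference between these effects gave 0.43 ± 0.19 (adjusted p = 0.206), or 0.60 (0.0353) without NT/lapatinib replicate 2. FOXA1 siRNA gave -0.06 ± 0.07 in DMSO (adjusted p = 0.512). In lapatinib it gave 0.34 ± 0.16 (adjusted p = 0.106), which was 0.35 (0.000184) with the block and 0.52 (0.0139) without NT/lapatinib replicate 2.

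EGR1 fell with lapatinib and rose with FOXA1 siRNA. Normalized counts were 371.4, 430.3 and 396.9 in NT/DMSO, 140.3, 268.4 and 146.7 in NT/lapatinib, 662.5, 573.2 and 830.9 in FOXA1/DMSO, and 288.3, 452.7 and 347 in FOXA1/lapatinib. FOXA1/lapatinib overlapped NT/DMSO, and the other pairs of groups did not overlap. Lapatinib lowered EGR1 to 47.2% of DMSO with NT siRNA (-1.08 ± 0.23, adjusted p = 0.00361) and to 53% with FOXA1 siRNA (-0.92 ± 0.18, adjusted p = 0.00296). FOXA1 siRNA raised it 1.74-fold in DMSO (0.80 ± 0.14, adjusted p = 0.00253) and 1.94-fold in lapatinib (0.96 ± 0.26, adjusted p = 0.0186). This last call was lost without NT/lapatinib replicate 1 (adjusted p = 0.0642) or 3 (0.0671) or FOXA1/lapatinib replicate 2 (0.0576). The interaction was 0.18 ± 0.33 (adjusted p = 0.819).

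IER2 changed with the siRNA alone. Its normalized counts ran from 2934 to 3615 in the 6 NT libraries and from 3741 to 4395 in the 6 FOXA1 siRNA libraries, so the siRNAs did not overlap. FOXA1 siRNA raised it 1.3-fold in DMSO (0.38 ± 0.06, adjusted p = 0.00197) and 1.32-fold in lapatinib (0.40 ± 0.08, adjusted p = 0.00566). Lapatinib gave 0.07 ± 0.08 with NT siRNA (adjusted p = 0.475) and 0.10 ± 0.06 with FOXA1 siRNA (adjusted p = 0.227).

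IER3 was the member called for a drug effect that differed between the siRNAs in the fit without the block, and this call did not hold under every setting. The normalized counts were 1786, 2298 and 1774 in NT/DMSO, 1714, 2102 and 1751 in NT/lapatinib, 3039, 3230 and 3323 in FOXA1/DMSO, and 1853, 2291 and 1845 in FOXA1/lapatinib. FOXA1/DMSO lay above all other groups, and the 3 others overlapped. FOXA1 siRNA raised IER3 1.65-fold in DMSO (0.72 ± 0.11, adjusted p = 0.0011), and lapatinib then lowered it to 62.8% (-0.67 ± 0.09, adjusted p = 0.000289). With NT siRNA lapatinib gave -0.05 ± 0.12 (adjusted p = 0.729). In lapatinib the siRNA gave 0.10 ± 0.11 (adjusted p = 0.49), and 0.10 (0.0465) with the block. The interaction, the log2 drug effect with FOXA1 siRNA minus that with NT siRNA, was -0.61 ± 0.16 (adjusted p = 0.0437). It was -0.62 (0.000578) with the block, -0.61 (0.00592) by DESeq2 and -0.60 (0.0542) with upper-quartile normalization. Leaving out 1 library gave -0.74 to -0.51 with adjusted p from 0.00874 to 0.11, which passed in 2 of 12 fits (without NT/DMSO replicate 2 or FOXA1/lapatinib replicate 2).

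Over all members, the interaction was called for 0 members in the positive and 1 in the negative direction, against 3.99% and 3.20% of 14012 genes (0.521% and 0.514% with a size of at least 1, reached by 0 members called). Without adjustment, 4 of the 10 had a p under 0.05 (FOSL1, IER3, JUN and JUNB). The share of all genes at this looser threshold was not computed, so this count cannot be set against the shares above. DESeq2 called IER3 and gave FOSL1 no adjusted p. With the block, 2 members were called in the negative direction, IER3 and JUNB, against 11.1% and 9.22% of all genes in the positive and negative direction.

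Levels of different genes were compared on the TPM scale, which accounts for transcript length. In NT/DMSO the order was IER3 (103 ± 18.2, SD, n = 3), IER2 (95.2 ± 6.38), JUND (76.9 ± 9.78), JUNB (56.5 ± 9.43), FOSL2 (21.7 ± 1.19), JUN (15.8 ± 0.914), EGR1 (7.99 ± 0.793), FOS (2.19 ± 0.703), FOSL1 (0.833 ± 0.163) and FOSB (0.83 ± 0.0721). The neighbors IER3 and IER2, and FOSL1 and FOSB, overlapped between libraries, and the other neighbors did not. In NT/lapatinib JUND led at 150 ± 22.5 TPM and FOSL1 was last at 0.0367 ± 0.0321. In FOXA1/DMSO IER3 led at 169 ± 7.77 TPM and JUNB stood above JUND. In FOXA1/lapatinib IER2 led at 129 ± 6.85 TPM, and JUND, IER3 and JUNB overlapped with their neighbors in the order.

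The FOS family TPM was mostly FOSL2 in every library. The family sum was 25.5, 27.6 and 23.5 TPM in NT/DMSO, 46.7, 50.9 and 44.7 in NT/lapatinib, 38.8, 37.8 and 34.2 in FOXA1/DMSO, and 67.1, 70.4 and 64.2 in FOXA1/lapatinib. The groups kept the order of FOSL2 and did not overlap. FOSL2 made up 85.0% ± 2.3 (SD, n = 3) of the sum in NT/DMSO, 94.4% ± 1.31 in NT/lapatinib, 86.2% ± 1.47 in FOXA1/DMSO and 94.5% ± 1.15 in FOXA1/lapatinib. FOS made up 8.48% ± 2.05, 2.82% ± 1.11, 9.92% ± 1.57 and 3.74% ± 0.999 in the same order.

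The make-up of the JUN family sum moved with both treatments. The sum was 146, 170 and 132 TPM in NT/DMSO, 242, 289 and 214 in NT/lapatinib, 165, 169 and 167 in FOXA1/DMSO, and 213, 245 and 223 in FOXA1/lapatinib. Both lapatinib groups lay above both DMSO groups. The ratio of JUND to JUNB TPM was 1.37 ± 0.0574 in NT/DMSO, 1.81 ± 0.15 in NT/lapatinib, 0.707 ± 0.0837 in FOXA1/DMSO and 1.16 ± 0.00976 in FOXA1/lapatinib. JUNB therefore exceeded JUND in FOXA1/DMSO alone, in all 3 of its libraries. The ratio of JUN family to FOS family TPM was 5.83 ± 0.291, 5.21 ± 0.454, 4.53 ± 0.31 and 3.37 ± 0.174 in the same order of groups.

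**Figure D3:**
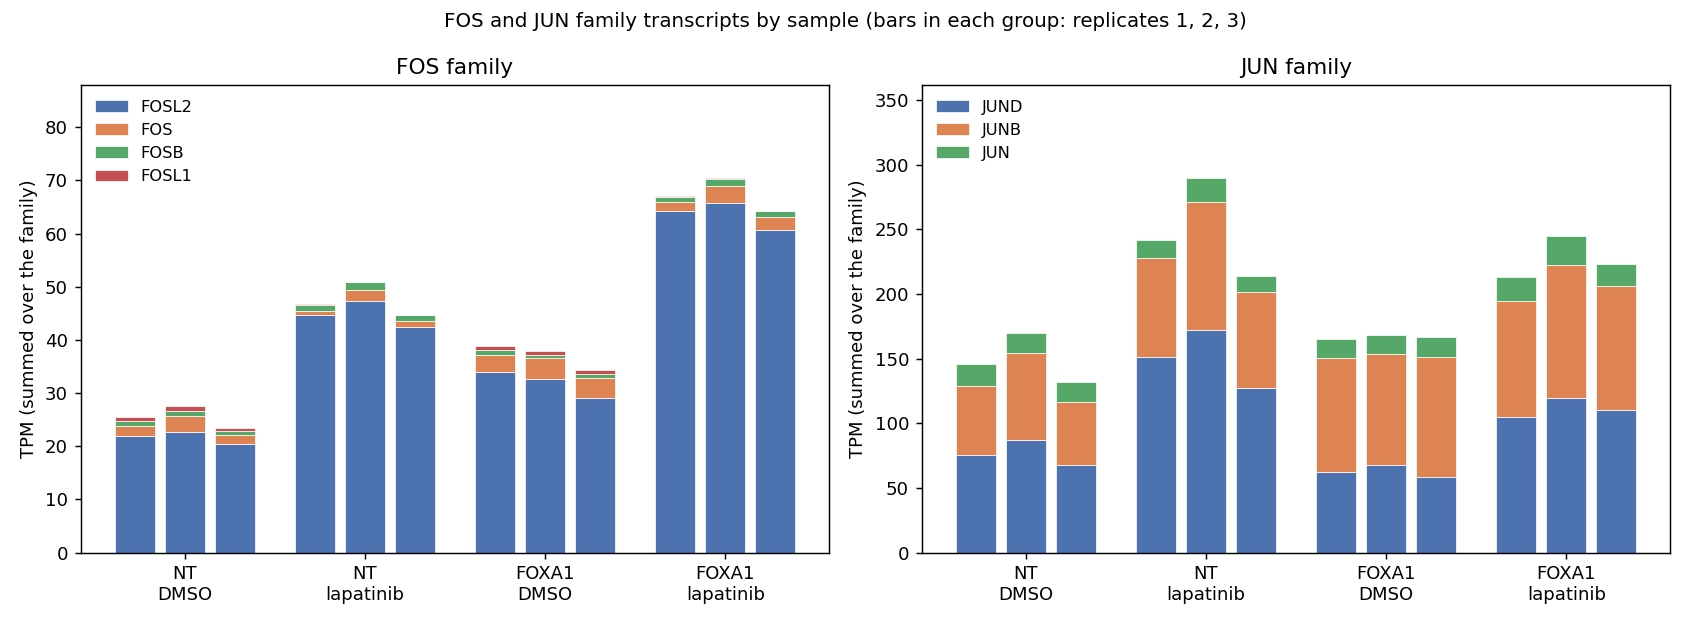
TPM summed over the FOS family (left) and the JUN family (right) in each library, as stacked bars for replicates 1, 2 and 3 of each group. FOSL2 fills most of every FOS family bar, from 82.4% to 95.7%, and the JUND segment is larger in both lapatinib groups than in the DMSO groups.

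Genes around AP-1 were described from 4 lists, and their counts are read against the shares of all genes given for the members. Of 10 other basic leucine zipper genes, 9 were tested (BATF3 had at most 2 counts). With lapatinib, 5 rose under NT siRNA (ATF2, ATF3, ATF7, JDP2 and MAFF), and 5 rose under FOXA1 siRNA (ATF2, ATF3, JDP2, MAFF and MAFK). Called lower by edgeR were 0 in either comparison. An unadjusted p under 0.05 without a call was found for BATF under NT siRNA (-0.21). Under FOXA1 siRNA it was found for ATF7 (0.27) and MAFG (0.22), both upward. Of all genes, 30.5% rose with NT and 29.0% with FOXA1 siRNA, and 29.2% and 29.1% fell. MAFF, a small MAF protein, went from 365 ± 101 to 859 ± 180 normalized counts with NT siRNA (1.25 ± 0.21, adjusted p = 0.00102). ATF2, a JUN partner at the cyclic AMP response element, rose by 0.75 ± 0.15 (adjusted p = 0.00235) and ATF7, its close relative, by 0.44 ± 0.09 (adjusted p = 0.00284). With FOXA1 siRNA 1 rose and 5 fell in DMSO (BATF2 up; ATF3, BATF, JDP2, MAFG and MAFK down), and 1 rose and 3 fell in lapatinib (BATF2 up; ATF7, BATF and JDP2 down). Of all genes, 21.9% rose and 21.3% fell in DMSO, and 22.7% rose and 22.2% fell in lapatinib. BATF2 reached 10 counts in no NT/DMSO library, and without it 0 of 8 rose in DMSO (1 with the block). The replicate block changed these counts to 2 and 6 in DMSO and to 3 and 3 in lapatinib, gave 7 that rose with lapatinib under FOXA1 siRNA, and added 1 gene that fell with lapatinib under NT siRNA. With the block, FOXA1 siRNA raised 30.3% and lowered 30.2% of all genes in DMSO, and raised 30.6% and lowered 31.1% in lapatinib. Lapatinib raised 34.5% of all genes under FOXA1 siRNA and lowered 32.8% under NT siRNA with the block. MAFK, another small MAF protein, was the 1 interaction call (0.47 ± 0.09, adjusted p = 0.0105; 3 calls with the block). It had 4375 ± 30.4 normalized counts in NT/DMSO, 3967 ± 409 in NT/lapatinib, 3322 ± 44.8 in FOXA1/DMSO and 4164 ± 223 in FOXA1/lapatinib. Of all genes, 3.99% had a positive interaction called, or 11.1% with the block.

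The second list held 18 other immediate early genes. With lapatinib and NT siRNA, 4 of 15 tested rose (BTG2, GADD45B, PPP1R15A and ZFP36) and 4 fell (ARC, IER5, NR4A1 and NR4A3), or 6 and 5 with the block, against 30.5% and 29.2% of all genes (34.5% and 32.8% with the block). ARC passed the filter there through NT/DMSO alone, and without it 3 of 14 fell. With FOXA1 siRNA, 7 of 15 rose, among them CTGF (CCN2) and CYR61 (CCN1), and 1 fell, ARC (7 and 2 with the block), against 29.0% and 29.1% of all genes. EGR2 and EGR3 are left out of this count because they reached 10 counts only in FOXA1/lapatinib, where their highest counts were 21 and 10. Their mean normalized counts in NT/DMSO, NT/lapatinib, FOXA1/DMSO and FOXA1/lapatinib were 2.61, 4.16, 4.11 and 15.8 for EGR2 and 1.28, 1.87, 3.21 and 8.34 for EGR3. ARC, a cytoskeleton-associated protein known from neurons, resembled EGR1 in direction in all 4 comparisons. For lapatinib with NT siRNA and for FOXA1 siRNA in lapatinib, the filter let ARC enter only in this direction. It had 24.8 ± 5.18 normalized counts in NT/DMSO, 6.4 ± 2.03 in NT/lapatinib, 119 ± 9.79 in FOXA1/DMSO and 43.5 ± 11.7 in FOXA1/lapatinib. FOXA1 siRNA raised ARC by 2.26 ± 0.19 in DMSO (adjusted p = 8.4e-05) and by 2.73 ± 0.36 in lapatinib (adjusted p = 0.000494). In lapatinib ARC passed the filter through FOXA1/lapatinib alone, so it could enter that test only as a gene higher there. BTG2, an antiproliferative p53 target, rose with lapatinib under NT siRNA by 0.63 ± 0.11 (adjusted p = 0.00137). PPP1R15A (GADD34), a phosphatase subunit of the stress response, rose by 0.78 ± 0.13 with NT siRNA (adjusted p = 0.00111) and by 1.0 ± 0.10 with FOXA1 siRNA (adjusted p = 7.84e-05).

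FOXA1 siRNA raised 4 of 15 of these genes and lowered 6 in DMSO, against 21.9% and 21.3% of all genes. In lapatinib ARC, EGR2 and EGR3 passed the filter through FOXA1/lapatinib alone, and of the other 14 genes 5 rose and 2 fell (6 and 4 with the block), against 22.7% and 22.2% of all genes (30.6% and 31.1% with the block). The interaction was called for 2 genes, both orphan nuclear receptors and both positive (4 positive and 1 negative with the block). Of all genes, 3.99% had a positive and 3.20% a negative interaction called (11.1% and 9.22% with the block). NR4A3 had 389 ± 83.1 normalized counts in NT/DMSO, 131 ± 30.7 in NT/lapatinib, 378 ± 84.2 in FOXA1/DMSO and 303 ± 11.2 in FOXA1/lapatinib. Its drug effect was -1.55 ± 0.21 with NT siRNA (adjusted p = 0.000304) and -0.31 ± 0.16 with FOXA1 siRNA (adjusted p = 0.127), with an interaction of 1.26 ± 0.29 (adjusted p = 0.0215). NR4A1 fell by 0.31 on the log2 scale with lapatinib under NT siRNA (adjusted p = 0.0403) and rose by 0.48 under FOXA1 siRNA (adjusted p = 0.0158), with an interaction of 0.80 ± 0.20 (adjusted p = 0.03). EGR4 was not tested in any comparison, and EGR2 and EGR3 were not tested in the 2 comparisons that hold NT/DMSO, for low counts.

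Among 10 upstream factors and kinases, SRF, the factor that binds CArG boxes, was the 1 interaction call (0.40 ± 0.08, adjusted p = 0.0143; the block added 2 negative calls). Of all genes, 3.99% had a positive interaction called, and 9.22% a negative one with the block. SRF had 1342 ± 20.5 normalized counts in NT/DMSO, 1069 ± 26.2 in NT/lapatinib, 1104 ± 65.7 in FOXA1/DMSO and 1157 ± 63.5 in FOXA1/lapatinib. It fell with lapatinib under NT siRNA (-0.31 ± 0.06, adjusted p = 0.00178), whereas under FOXA1 siRNA the difference was 0.08 ± 0.07 (adjusted p = 0.353). With lapatinib 3 of 10 rose and 3 fell under NT siRNA (4 and 4 with the block), and 3 rose and 2 fell under FOXA1 siRNA, close to the shares of all genes in each direction (30.5% and 29.2%, and 29.0% and 29.1%). MAPK8 (JNK1) and MAPK9 (JNK2), the kinases that phosphorylate JUN, moved in opposite directions. With NT siRNA MAPK8 rose by 0.43 ± 0.08 (adjusted p = 0.00151) and MAPK9 changed by -0.82 ± 0.05 (adjusted p = 8.45e-06). MKL2 (MRTFB), an SRF coactivator, rose by 0.57 ± 0.06 with lapatinib under NT siRNA (adjusted p = 5.9e-05) and by 0.68 ± 0.05 with FOXA1 siRNA in DMSO (adjusted p = 5.05e-05). FOXA1 siRNA raised 2 and lowered 4 of the 10 in DMSO (4 and 4 with the block), and raised 3 and lowered 3 in lapatinib (4 and 4 with the block). In DMSO 21.9% of all genes rose and 21.3% fell, and with the drug 22.7% rose and 22.2% fell.

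Of 12 genes known as AP-1 targets, 9 were tested, since MMP1, MMP3 and MMP10 had at most 4 counts. With lapatinib 3 rose and 5 fell under NT siRNA, and 3 rose and 3 fell under FOXA1 siRNA (3 and 5 with the block), where 30.5% and 29.2%, and 29.0% and 29.1%, of all genes did so. The median log2 fold changes of the 9 were -0.63 and -0.24, with medians of 0.03 and 0.01 over all genes. PLAU, the urokinase protease, went from 277 ± 29.7 to 1169 ± 303 normalized counts with NT siRNA (2.10 ± 0.18, adjusted p = 2.93e-05) and from 126 ± 19.2 to 490 ± 85.1 with FOXA1 siRNA (1.96 ± 0.16, adjusted p = 2.68e-05). CCND1, the cyclin of entry into the cell cycle, went from 10233 ± 1637 to 2233 ± 445 with NT siRNA (-2.18 ± 0.16, adjusted p = 1.42e-05). HBEGF, an EGFR ligand, fell with NT siRNA (-2.17 ± 0.27, adjusted p = 0.000209) and with FOXA1 siRNA (-1.13 ± 0.23, adjusted p = 0.0029). HMGA1, a chromatin protein, fell by 0.63 and by 0.54 on the log2 scale with NT and with FOXA1 siRNA (adjusted p = 0.000189 and 0.00234). FOXA1 siRNA raised 3 and lowered 3 of the 9 in DMSO (21.9% and 21.3% of all genes), and raised 5 and lowered 2 in lapatinib (22.7% and 22.2%). CCND1 fell in both, with log2 fold changes of -1.22 ± 0.14 in DMSO (adjusted p = 0.000381) and -1.38 ± 0.25 in lapatinib (adjusted p = 0.00258). PLAU did likewise, with -1.12 ± 0.14 (adjusted p = 0.000618) and -1.26 ± 0.19 (adjusted p = 0.00103). The interaction was called by edgeR for 0 of the 9, and for 2 with the block, both positive, where 11.1% of all genes had a positive call. Another 2 figures as the count at an unadjusted p under 0.05, for which no share of all genes was computed.

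**Figure D4:**
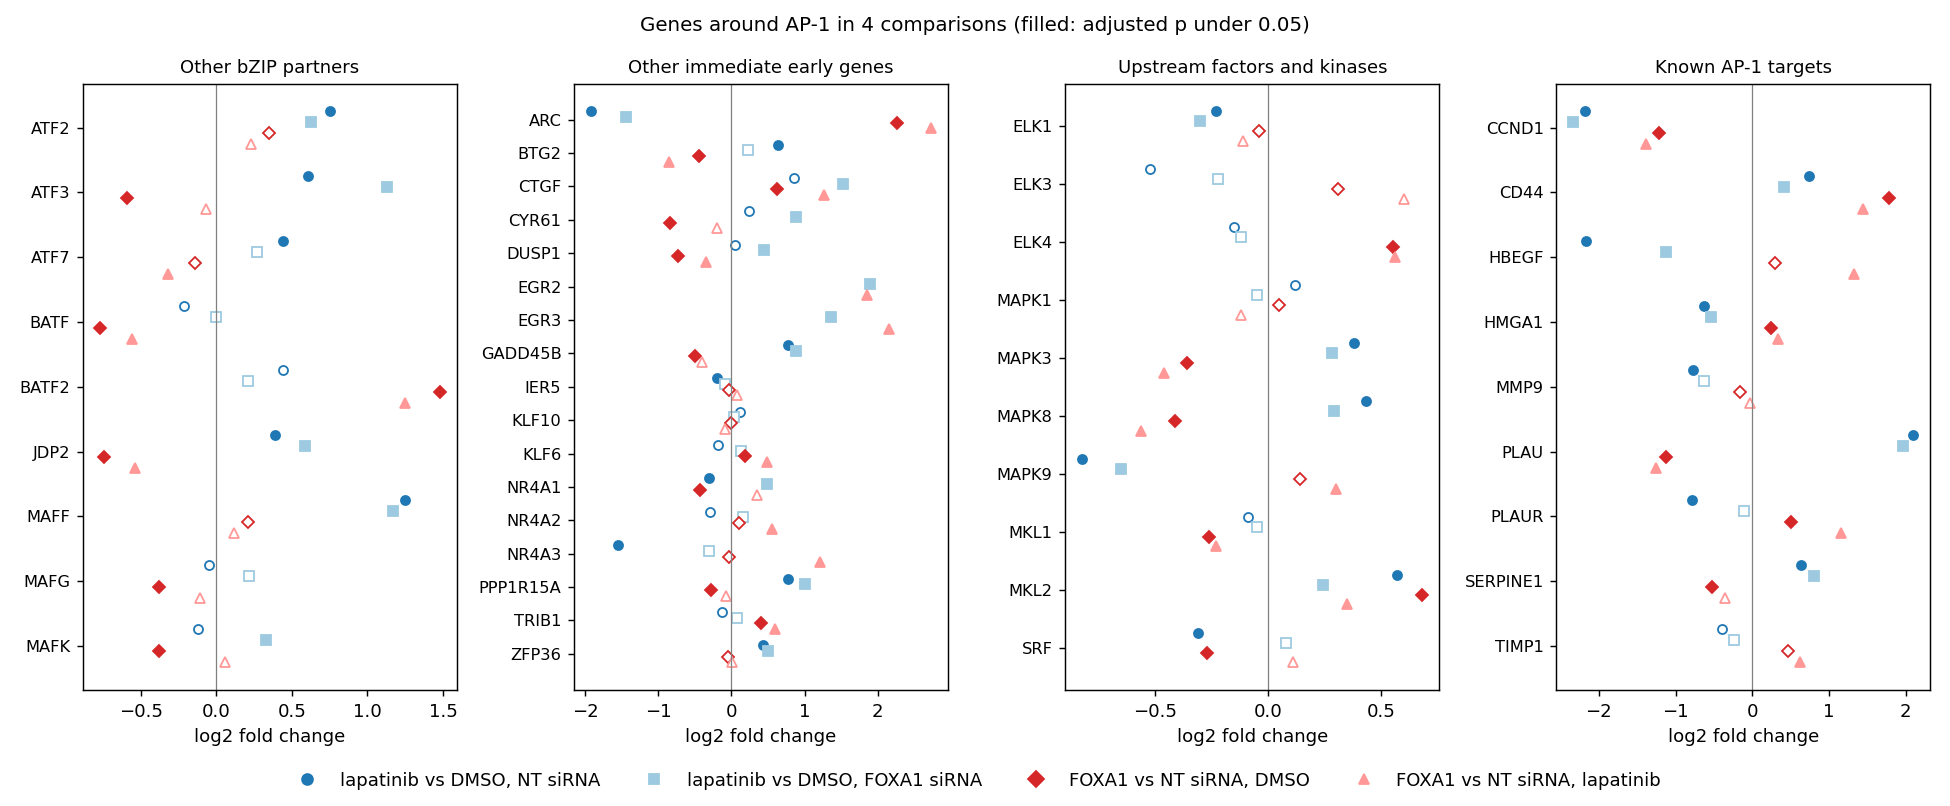
Log2 fold change (x axis) of every tested gene of the 4 lists in the 4 comparisons, with filled symbols for an adjusted p under 0.05. PLAU and CCND1 lie farthest out among the targets with lapatinib, in opposite directions, and ARC lies left with lapatinib and right with FOXA1 siRNA.

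The 3 genes whose log2 normalized counts followed FOS most closely over the 12 libraries, among 12170 genes with at least 10 counts in every library, were PLK3 (Pearson r = 0.961), ELK3 (0.934) and TIGD1 (0.928). For FOSL1 they were UCK2 (0.989), PDCD2L (0.986) and LAPTM4B (0.986). These values describe 12 libraries that share 4 treatments, and FOSL1 rests on 0 to 22 counts per library.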

How the data were processed

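RNA of 12 SKBR-3 samples was sequenced after polyA selection. The labels name both a KAPA stranded and an Illumina TruSeq v2 library kit. The authors deposited an expected count, a normalized value and TPM per gene. Their methods give hg38, STAR and Salmon, whereas the deposited columns are those of RSEM, and the build behind them is not stated in the file headers. Expected counts, 87.5% to 88.1% of them whole, were rounded. edgeR 4.0.16 in R 4.3.3 was used (TMM, quasi-likelihood test, Benjamini-Hochberg over all genes) after dropping genes under 10 counts in every sample fitted. Each comparison was fitted on its 6 samples and the interaction on all 12. Normalized counts are TMM-scaled to the average depth. Deposited TPM served for levels between genes. The normalized value was not used.

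Same-numbered samples deviated together from their group means (mean correlation 0.39, range 0.241 to 0.624 over 12170 genes), so a fit with the replicate number as a block was added. The mean for different numbers was -0.184. It is no separate comparison, because deviations from a group mean cancel within the group and largely fix this value. DESeq2 1.42.0 and other settings served as alternatives. The edgeR fits without a block were tested on simulated counts with independent replicates, where only genes with high counts were changed. Genes at few counts, such as FOSL1 and ARC, and the fit with the block were not covered by this. Members and lists were chosen with earlier results of these data known. All members are named, and from each list the 4 genes with the smallest p in the interaction or in lapatinib against DMSO with NT siRNA. Other list genes given by name, NR4A1 among them, were picked out after their values were seen. Python 3.11.15 made the tables.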

Additional observations from a re-analysis of the deposited data

Results flagged for a closer look

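The effect of lapatinib on IER3 differed between the siRNAs, by an interaction of -0.61 on the log2 scale (adjusted p = 0.0437, edgeR's quasi-likelihood test). The call was lost with upper-quartile normalization (-0.60, adjusted p = 0.0542) and in 10 of 12 fits that left out 1 library (adjusted p up to 0.11), and it held with the replicate block (-0.62, adjusted p = 0.000578). Normalized counts fell from 3197 ± 145 (SD, n = 3) to 1996 ± 255 with FOXA1 siRNA and were 1952 ± 299 and 1856 ± 214 with NT siRNA. All 3 FOXA1/DMSO libraries lay above all FOXA1/lapatinib libraries, and the NT groups overlapped. Reads of the antisense RNAs that overlap IER3 cannot be told apart from its own without strand.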

How the results depend on the processing

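Across single members and FOXA1, 351 of 363 values under other settings kept direction and call, 9 became calls and 3 lost them. When a size of at least 1 on the log2 scale was required, lapatinib raised 2 members with NT siRNA and 1 with FOXA1 siRNA (where 1 fell), FOXA1 siRNA raised 0 and lowered 0 in DMSO and in lapatinib, and 0 negative interactions were called. JUND, raised with NT siRNA, was at the edge of this size (0.99 by DESeq2). At an adjusted p under 0.01, 0 members fell with FOXA1 siRNA in DMSO and 0 negative interactions were called, as was so with upper-quartile normalization (0). With at least 10 counts in every sample, 1 member fell with lapatinib under NT siRNA, because FOSL1 was then not tested. FOXA1 siRNA in lapatinib raised 6 members with all 12 samples in one model and 7 with the replicate block, which also gave 2 negative interactions. With the block, 30.6% of all genes rose in that comparison and 9.22% had a negative interaction. No share of all genes is given for the model of all 12 samples, so its count of 6 cannot be set against one. That model also tested FOSL1 for FOXA1 siRNA in lapatinib. FOSL1 passed its filter through DMSO libraries that this comparison does not hold. The block changed no member's call beyond those given in the report.

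Leaving out 1 sample gave 3 to 4 members raised and 2 to 3 lowered by lapatinib with NT siRNA, 3 to 4 and 3 to 4 with FOXA1 siRNA, 5 to 6 and 0 to 1 for FOXA1 siRNA in DMSO, 2 to 6 and 1 to 1 in lapatinib (6 without NT/lapatinib replicate 2), and 0 to 1 positive and 0 to 2 negative interactions. Of 390 single values, 341 kept direction and call, 9 became calls, 24 lost them and 16 changed sign. The sign changes were in values without a call: with lapatinib under NT siRNA, JUN (-0.22 to 0.08), IER2 (-0.02 to 0.13) and IER3 (-0.15 to 0.06); with FOXA1 siRNA, FOSB in DMSO (-0.20 to 0.03) and IER3 in lapatinib (-0.02 to 0.19); and in the interaction, FOS (0.00 to 0.78), EGR1 (-0.02 to 0.55), IER2 (-0.02 to 0.13) and FOXA1 (-0.20 to 0.07). The cause was not tested. Depth limits FOSL1 most. A limit of detection of 3 counts was set, but the fits and ratios of FOSL1 were made without applying it.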
